A study of Homo sapiens with 3 samples.

Results

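The 35 genes described here encode aminoacyl-tRNA synthetases, the enzymes that join each amino acid to its transfer RNA. They were taken from a fixed list of protein-coding genes, out of 20037 in the RefSeq table of the human genome (GRCh38.p14). The list was divided by symbol into 16 genes for mitochondrial enzymes, whose symbols end in 2, and 19 for cytosolic ones. The cells were H1299, an established human lung cancer line that the labels describe as lung adenocarcinoma, and no treatment, genotype or time is named. Each antibody had 1 CUT&RUN library, made by letting an antibody guide a nuclease to its target in nuclei and sequencing the released DNA. One antibody was against SP1, one against histone H3 acetylated at lysine 27 (H3K27ac), and the control IgG library was not analysed here.

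Protein synthesis runs separately in the cytosol and in mitochondria, and both use synthetases made from nuclear genes. For most amino acids each compartment has a gene of its own, while GARS1 and KARS1 serve both compartments from 1 gene. Mitochondrial glutaminyl-tRNA is made by a transamidase, so QARS1 has no mitochondrial counterpart. EPRS1 joins the glutamate and proline activities in 1 cytosolic protein, and FARSA and FARSB encode the subunits of the cytosolic phenylalanine enzyme. SP1 is a zinc-finger transcription factor that recognises GC boxes in promoters. H3K27ac is found on nucleosomes beside active promoters and enhancers. Several cytosolic synthetase genes are known targets of ATF4, the factor that is made when amino acids run short.

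The SP1 list held 5570 summits and the H3K27ac list 3201, each a single base with a score. The score is on a −log10 scale of either a p-value or a q-value, and the files leave unsaid which of them. It ran from 3.0 to 268 for SP1, with a median of 6.17, and from 3.02 to 275 for H3K27ac, with a median of 5.01. A summit was assigned to a gene when it lay within 1000 bases of either end of its RefSeq span, here called a gene end. The files hold no reads, so the depth of the libraries is unknown, and a gene without a summit may have had signal below the calling threshold. No difference below has a replicate, and no p-value was computed. Scores were not compared between antibodies.

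The bases before the starts of 5 of the genes with SP1 are shown to let their sequences be compared. SARS2, FARSB and LARS2 had higher-scoring summits, and those of HARS2 and QARS1 scored below the list's median. The RefSeq promoter table, on GRCh38.p14, had entries for 30 of the 35 genes and for 15843 protein-coding genes in all. AARS2, LARS1, VARS1, VARS2 and YARS1 had none. Sequences run 5′ to 3′ on the gene's strand and end at the base before the listed start. Each is at most 250 bases long and stops where a neighbouring gene begins. Capitals mark GC boxes (GGGCGG or its complement CCGCCC) in SARS2, LARS2 and QARS1. In FARSB, which had no GC box, they mark the 21 bases centred on the SP1 summit. In HARS2 they mark CCGGAAG, the core that ETS factors recognise, on either strand.
SARS2: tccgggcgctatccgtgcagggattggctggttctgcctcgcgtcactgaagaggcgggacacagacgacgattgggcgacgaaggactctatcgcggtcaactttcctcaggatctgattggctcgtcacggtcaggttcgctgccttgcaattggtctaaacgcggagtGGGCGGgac
FARSB: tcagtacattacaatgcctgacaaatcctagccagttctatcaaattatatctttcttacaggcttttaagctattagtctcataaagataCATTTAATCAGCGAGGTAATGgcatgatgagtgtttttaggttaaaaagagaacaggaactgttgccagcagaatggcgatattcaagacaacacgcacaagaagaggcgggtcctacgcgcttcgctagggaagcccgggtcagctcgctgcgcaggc
LARS2: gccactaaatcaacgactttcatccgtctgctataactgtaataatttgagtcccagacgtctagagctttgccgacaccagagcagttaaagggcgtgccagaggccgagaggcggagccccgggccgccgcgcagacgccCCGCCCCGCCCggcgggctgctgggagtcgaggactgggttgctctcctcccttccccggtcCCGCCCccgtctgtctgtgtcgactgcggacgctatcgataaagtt
QARS1: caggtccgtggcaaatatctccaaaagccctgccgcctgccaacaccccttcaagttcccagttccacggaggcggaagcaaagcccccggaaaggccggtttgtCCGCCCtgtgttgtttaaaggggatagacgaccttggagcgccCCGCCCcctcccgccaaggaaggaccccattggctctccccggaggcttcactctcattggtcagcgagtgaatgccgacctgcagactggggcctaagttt
HARS2: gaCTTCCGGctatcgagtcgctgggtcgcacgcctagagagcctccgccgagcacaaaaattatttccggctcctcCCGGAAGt
The SARS2 stretch is chr19:38930764-38930943 on the minus strand and reaches to the start of MRPS12. That of FARSB is chr2:222656093-222656342 (minus), that of LARS2 chr3:45388326-45388575 (plus) and that of QARS1 chr3:49104758-49105007 (minus). The 84 bases of HARS2, chr5:140691371-140691454 (plus), are all that lies between the spans of HARS1 and HARS2, so read on the other strand they are also the HARS1 promoter. SARS2 had 1 GC box, LARS2 had 3 and QARS1 had 2. The SP1 summit of FARSB was the one among these that fell inside a stretch shown.

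SP1 summits stood at the ends of 9 of the 35 genes, or 25.7% (95% Wilson interval 14.2 to 42.1, counting error only). The share over all 20037 protein-coding genes was 13.7%, which lies just below that interval. That position depended on the rule of assignment. Within 500 bases the share over all genes was 11.4%, also below the members' interval, but within 2500 bases it was 15.8%, inside it. By listed start it was 14.9%, again inside the members' interval of 14.2 to 44.4. The 9 genes were SARS2, CARS2, VARS2, LARS2 and HARS2 among the mitochondrial enzymes and FARSB, HARS1, QARS1 and YARS1 among the cytosolic ones. They rested on 10 separate summits, because CARS2 and LARS2 had 2 each and HARS1 and HARS2 shared 1. HARS1 and HARS2 are therefore not independent, and the intervals here treat genes as if they were. H3K27ac summits stood at the ends of 0 of the 35 genes, which allows a share of up to 8.57%. The share over all protein-coding genes was 0.848%, so the upper limit lies well above the background.

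The members were nearer to the background among the stronger summits. With only SP1 summits above the median score of the list, 5 of the 35 genes remained, or 14.3%, beside 10.4% of all protein-coding genes. With summits above the upper quartile, a score of 9.04, 3 genes remained (8.57%) beside 6.21%. Both shares lay close to the background. The 3 genes were SARS2, CARS2 and FARSB.

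Of the 16 mitochondrial genes 5 had a summit, or 31.2% (14.2 to 55.6), and of the 19 cytosolic genes 4 did, or 21.1% (8.51 to 43.3). The intervals overlapped over most of their width, so a difference between the compartments was not detectable with these numbers of genes. Above the median score the counts were 4 mitochondrial genes (25%, 10.2 to 49.5) and 1 cytosolic gene (5.26%, 0.935 to 24.6), and these intervals overlapped as well. The highest score per gene ran from 5.28 to 19.9 in the 5 mitochondrial genes, with a median of 6.29. It ran from 5.09 to 15.4 in the 4 cytosolic genes, with a median of 5.24. Over the 2752 protein-coding genes with an SP1 summit the median was 8.56, above 6 of the 9 synthetase genes.

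**Figure D1:**
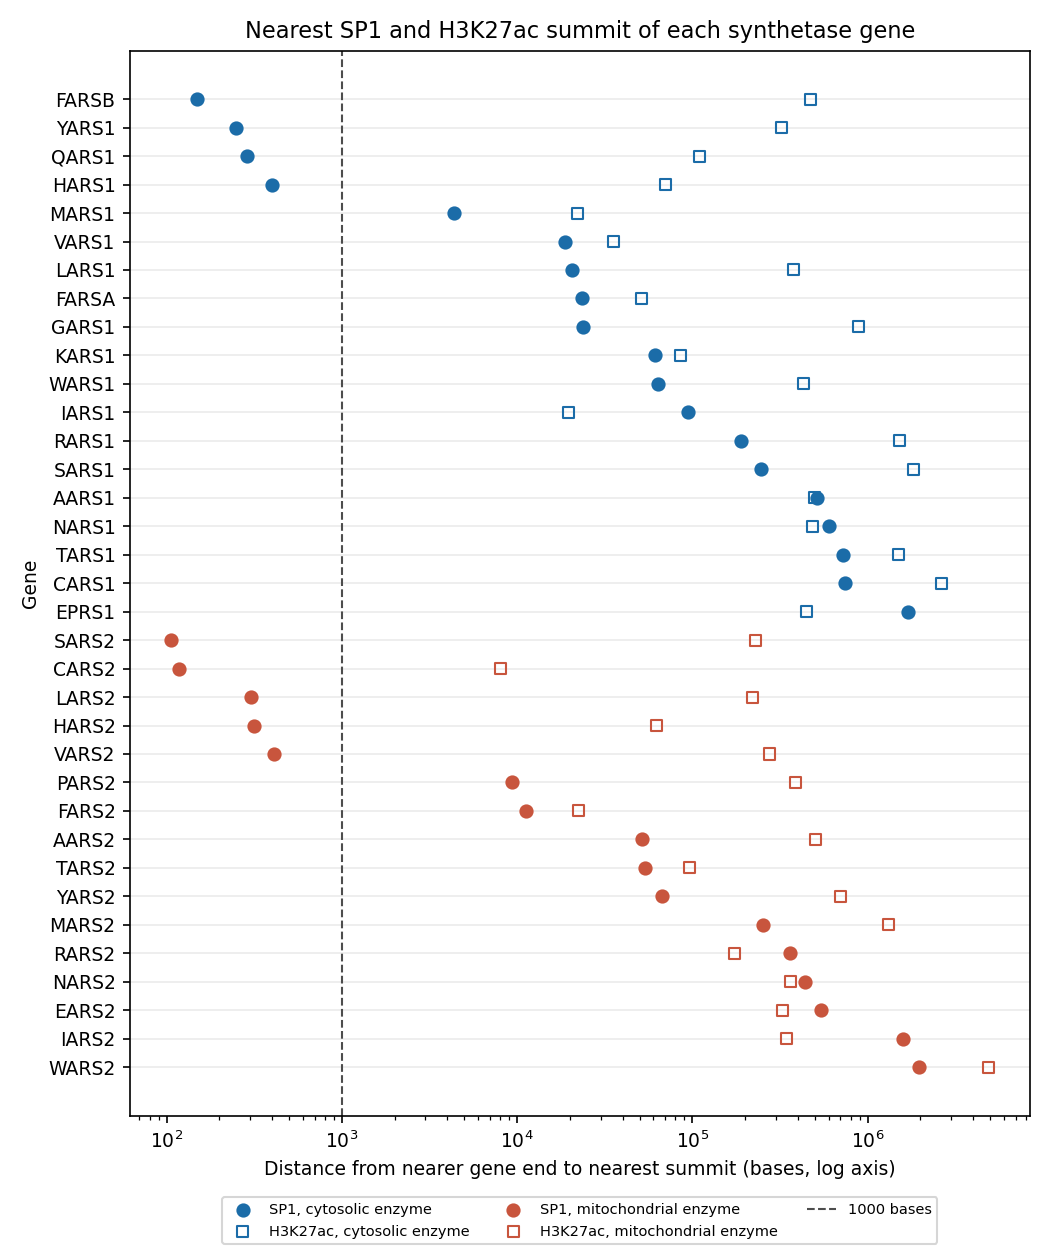
Distance in bases, on a log axis, from the nearer end of each of the 35 genes to the nearest SP1 summit (filled circles) and H3K27ac summit (open squares), with cytosolic enzymes in blue, mitochondrial ones in red and a dashed line at 1000 bases. The 9 genes with SP1 lie left of 411 bases or at it, the next gene, MARS1, is at 4348 bases, and the H3K27ac summits lie at 8026 bases (CARS2) or farther.

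The mitochondrial enzymes held the strongest site. SARS2, which encodes the mitochondrial seryl-tRNA synthetase (chr19:38915266-38930763), had an SP1 summit at 38930657 with a score of 19.9. This was rank 238 of 5570 in the whole list and rank 170 among the 2457 summits at gene ends. It lay 106 bases inside the gene from its start and 287 bases from an end of MRPS12, a gene for a protein of the mitochondrial ribosome's small subunit. The listed starts of SARS2 and MRPS12 were 181 bases apart on opposite strands. The summit thus stood near the starts of 2 genes of mitochondrial translation, and which of them it belongs to cannot be told apart.

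CARS2, the mitochondrial cysteinyl-tRNA synthetase gene (chr13:110641410-110713522), had SP1 summits at the outer end of its span and near an inner start. At the outer end of the span, the summit at 110713405 scored 15.6 (rank 440) and lay 117 bases inside the gene. A second summit at 110712746 scored 8.52 at 776 bases, and another at 110712327 scored 7.57 at 1195 bases, beyond the window. The second was 123 bases from an end of ING1, a chromatin reader gene, and therefore nearer to ING1 than to the end of CARS2. The starts that the promoter table lists for CARS2 lie farther in, at 110706515 and 110706116. An SP1 summit at 110705478 with a score of 5.36 lay 638 bases downstream of the inner one.

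The inner CARS2 start was also the one place in the synthetase genes where both antibodies met. An H3K27ac summit at 110705496, with a score of 4.11, lay 18 bases from that SP1 summit and 620 bases downstream of the start. At rank 2532 of 3201 it was among the lower scores of its list. Of the 30 genes with a listed start, CARS2 was the 1 gene with an H3K27ac summit within 1000 bases of it (3.33%, 0.591 to 16.7), beside 0.757% of all genes with one. The 250 bases before the inner start, chr13:110706117-110706366 on the minus strand, are shown because they held 6 GC boxes (capitals, some of them overlapping). FARS2 and IARS2 also had 6 in their windows, and no synthetase gene had more.
CARS2: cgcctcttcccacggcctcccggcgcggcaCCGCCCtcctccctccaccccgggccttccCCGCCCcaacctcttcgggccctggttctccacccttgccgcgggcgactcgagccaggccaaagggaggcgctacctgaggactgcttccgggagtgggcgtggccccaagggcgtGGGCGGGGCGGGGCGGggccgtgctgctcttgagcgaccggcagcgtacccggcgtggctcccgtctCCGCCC

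The other mitochondrial sites were weaker. VARS2, for valine (chr6:30914238-30926459), had a summit at 30914649 with a score of 6.29, 411 bases inside the gene. An end of GTF2H4, a gene of the transcription and repair factor TFIIH, was 543 bases from the summit. LARS2, for leucine (chr3:45388576-45549407), had summits on either side of its start. The one at 45388274, 302 bases upstream, scored 6.21, and the one at 45389037, 461 bases downstream, scored 4.42. No other protein-coding gene had an end within 1000 bases of either. The higher summits of VARS2 and LARS2 were close to the middle of the list, at ranks 2698 and 2755.

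HARS1 and HARS2, for histidine in the cytosol and in mitochondria, stand head to head on chromosome 5 with 85 bases between their listed starts. They shared the summit at 140691771, which scored 5.28 (rank 3617). It lay 316 bases inside HARS2 (chr5:140691455-140699305) and 401 bases upstream of HARS1 (chr5:140673905-140691370), so HARS2 was the nearer gene. This was the 1 amino acid of 14 with separate genes for both compartments at which both had a summit at a gene end. For cysteine, leucine, serine and valine the mitochondrial gene alone had one. For phenylalanine and tyrosine a cytosolic gene alone did. The phenylalanine split depended on the gene-end rule. By listed start both FARSB and FARS2 had SP1, the latter through a summit 186 bases from a start. VARS1, VARS2 and YARS1 have no listed start, so valine and tyrosine could not be compared that way. For the remaining 7 amino acids neither gene had a summit at an end.

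Among the cytosolic enzymes FARSB stood apart by its score. It encodes the beta subunit of the phenylalanyl-tRNA synthetase (chr2:222566899-222656092), and its summit at 222656241 scored 15.4 (rank 455), 149 bases upstream of the start. No other protein-coding gene had an end within 1000 bases. Its promoter window held no GC box and had the lowest G+C content of the 30 genes, 46.7%. FARSA, the alpha subunit gene, had 2 GC boxes but no SP1 summit nearer than 23.5 kb. Genes for the subunits of 1 enzyme thus differed in whether SP1 was detected.

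QARS1 and YARS1 had the lowest scores of the 9. QARS1, the glutaminyl-tRNA synthetase gene (chr3:49095932-49104757), had a summit at 49105046 with a score of 5.21, 289 bases upstream of its start. YARS1, for tyrosine (chr1:32775239-32817358), had one at 32817607 with a score of 5.09, 249 bases outside its high-coordinate end. Both scores were under the list's median.

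**Figure D2:**
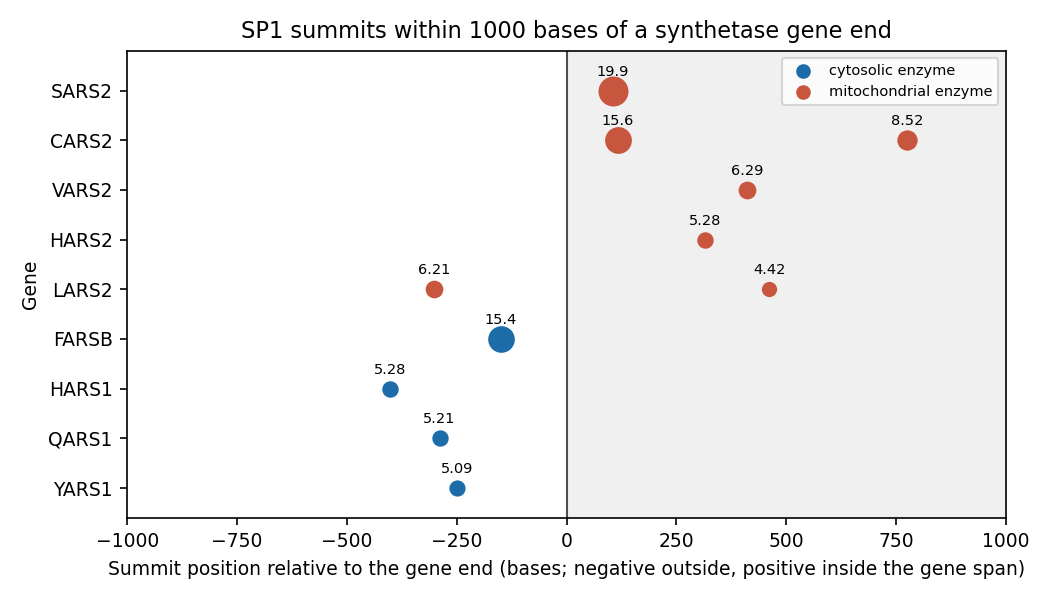
Position of each SP1 summit within 1000 bases of a synthetase gene end, in bases from that end (negative outside the gene span, positive inside, shaded), with the score printed above each point and larger points for higher scores. The 4 cytosolic genes (blue) have their summits outside the span, and 4 of the 5 mitochondrial genes (red) have the nearest one inside it.

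In the 7 of the 9 genes whose start is in the promoter table, the summit nearest to a gene end was at the end on the start side in 7. Over all such genes this held for 94.7% of 2292. In CARS2 that summit was nonetheless far from the nearest listed start, at position -6890 (negative upstream). Distances from the gene end ran from 106 bases (SARS2) to 411 bases (VARS2), with a median of 289, beside a median of 256 over the 2752 genes. The side of the end differed between compartments. In 4 of 4 cytosolic genes the nearest summit lay outside the span, and in 4 of 5 mitochondrial genes (SARS2, CARS2, VARS2 and HARS2) it lay inside. Over all 2752 genes it lay inside in 44.2%. This split was noticed after the positions were seen, counts the shared summit once on each side, and was not tested.

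**Figure D3:**
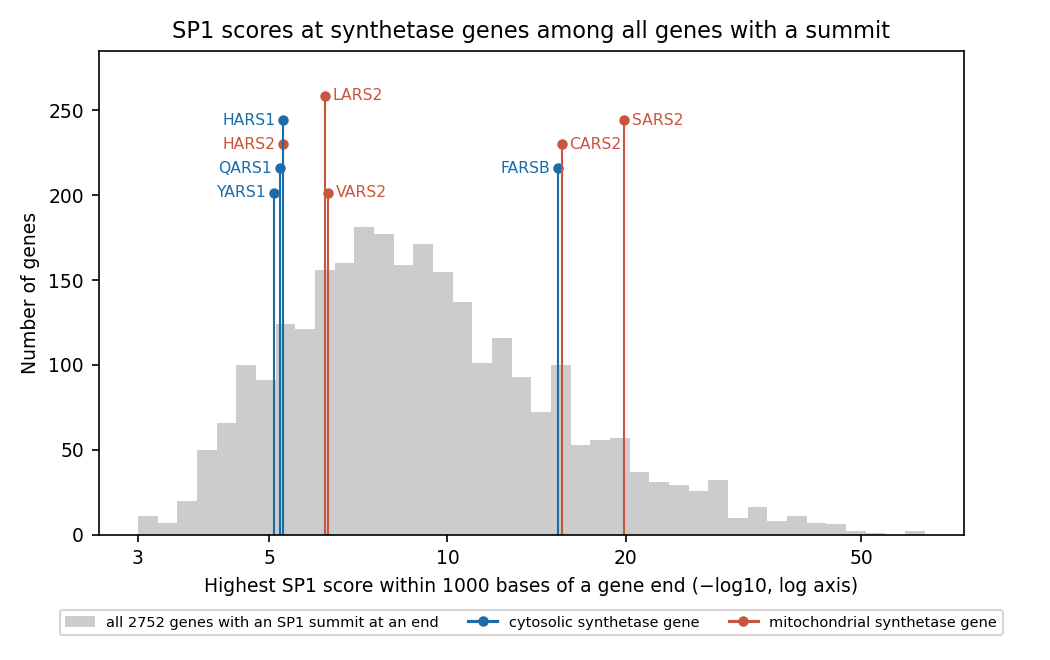
Highest SP1 score within 1000 bases of a gene end (−log10, log axis) for the 2752 protein-coding genes with a summit (grey bars, number of genes), with the 9 synthetase genes as labelled lines in blue (cytosolic) and red (mitochondrial), whose heights carry no value. SARS2, CARS2 and FARSB lie at 15.4 or more, and the other 6 lie at 6.29 or less, below the median of 8.56.

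The gap around the distance threshold was wide. The genes just inside it were VARS2 at 411 bases, HARS1 at 401 and HARS2 at 316, and those just outside were MARS1 at 4348, PARS2 at 9364 and FARS2 at 11259. Windows of 500 and 2500 bases gave the same 9 genes. MARS1, for methionine (chr12:57488068-57516652), overlaps DDIT3 at its downstream end, and the summit counted here, at 57521000 with a score of 7.29, lay 483 bases from the far end of DDIT3. FARS2, for mitochondrial phenylalanine, was outside only because its span reaches beyond its listed starts. Its summit at 5261193 on chromosome 6, with a score of 11.8 (rank 801), lay 186 bases downstream of the listed start at 5261007. That start is 57 bases from a start of LYRM4, a gene of iron-sulfur cluster assembly, on the other strand. The 56 bases between the 2 genes, chr6:5260951-5261006 (plus), are shown because they held 3 GC boxes, again in capitals.
FARS2: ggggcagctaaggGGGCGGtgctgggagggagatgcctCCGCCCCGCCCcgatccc
Counted by listed starts in place of gene ends, 8 of 30 genes had SP1 (26.7%, 14.2 to 44.4), beside 14.9% of 15843. FARS2 entered and, of the 9, VARS2 and YARS1 dropped out for lack of a listed start. CARS2 kept its place through the weaker inner summit.

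The 26 genes without SP1 at an end were AARS1, CARS1, EPRS1, FARSA, GARS1, IARS1, KARS1, LARS1, MARS1, NARS1, RARS1, SARS1, TARS1, VARS1 and WARS1 in the cytosol and AARS2, EARS2, FARS2, IARS2, MARS2, NARS2, PARS2, RARS2, TARS2, WARS2 and YARS2 in mitochondria. Their nearest SP1 summit was 4.35 kb (MARS1) to 1970 kb (WARS2) away, with a median of 142 kb, beside 129 kb for all genes without a summit. KARS1, for lysine in both compartments, had the highest-scoring nearest summit, 17.9, but at 61.6 kb. For H3K27ac the nearest summit lay 8.03 kb (CARS2) to 4920 kb (WARS2) from the gene end, with a median of 344 kb over the 35 genes. The median over all genes without an H3K27ac summit was 326 kb. FARS2 was the 1 gene that overlapped ranked regions of the deposited lists, an SP1 region of 236 bases (rank 741 of 2356) and an H3K27ac region of 219 bases (rank 1065 of 2710). They lay deep in the gene, and the SP1 and H3K27ac summits there were 92549 bases apart.

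The enzymes fall into class I and class II by the fold of their catalytic domain. Class I had 5 of 18 genes with SP1 (27.8%, 12.5 to 50.9) and class II 4 of 16 (25%, 10.2 to 49.5). The share over all protein-coding genes, 13.7%, lay inside each of these intervals. The cytosolic multi-synthetase complex has 7 members here, EPRS1, IARS1, LARS1, QARS1, MARS1, KARS1 and RARS1. Of these, QARS1 had a summit (14.3%, 2.57 to 51.3), a share close to that background.

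Many of the genes have a close neighbour, and SP1 was more frequent at such genes across the genome. Another protein-coding gene had an end within 1000 bases of an end of 16 of the 35 genes (45.7%), beside 28.5% of all genes. Of these 16, 6 had an SP1 summit (37.5%, 18.5 to 61.4), and of the other 19, 3 did (15.8%, 5.52 to 37.6). These intervals overlapped. The shares over all genes were 23.9% and 9.68%. Among the 30 genes with a listed start, 8 stood head to head with a gene on the other strand (26.7%, 14.2 to 44.4). The share over all 15843 genes with a listed start was 13.6%, just below that interval, which counts HARS1 and HARS2 separately although they face each other. The 8 genes had 57 to 352 bases between starts. These were EARS2 with UBFD1, FARS2 with LYRM4, HARS1 with HARS2 (counted as 2), KARS1 with TERF2IP, RARS2 with ORC3, SARS2 with MRPS12 and WARS1 with WDR25. SP1 summits at gene ends were found at HARS1, HARS2 and SARS2 of these 8. Over all head-to-head genes the share with SP1 was 27.5%, and over the rest 12.4%. The part that neighbouring genes play in the members' share was not tested.

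The promoter sequences, which played no part in choosing the genes, were then searched for 7 motifs on both strands in windows from 250 bases before to 50 bases after each listed start. A gene with several listed starts counted as having a motif if any window held it, and overlapping matches were each counted. None of the motifs contains another. GC boxes (GGGCGG) were found in 23 of 30 synthetase genes (76.7%), beside 64.3% of all genes. The counts were 12 of 16 cytosolic genes (75%) and 11 of 14 mitochondrial genes (78.6%). Across the genome, 83.9% of genes with an SP1 summit had a GC box and 60.9% of those without. In the family the order was the other way, with 4 of 7 genes with a summit (57.1%) and 19 of 23 without (82.6%). Of the 7 genes with a summit, FARSB alone had it inside the window searched. The counts therefore do not describe the sequence at the other summits. Summits were counted here by gene end but GC boxes by listed start. FARS2, with 6 GC boxes, was therefore counted as without, although a summit lay 186 bases from its listed start. CARS2 was counted as with one through a summit at position -6890 from the nearest listed start, and had a weaker one 638 bases from a listed start. Only 7 genes stand on one side, and 2 of the 3 without a GC box, HARS1 and HARS2, share most of their windows. Of the 23 genes with a GC box 4 had an SP1 summit (17.4%, 6.98 to 37.1), close to 18.9% of all genes with one. Of the 7 without a GC box 3 had a summit, FARSB and the HARS1 and HARS2 pair with its shared summit (42.9%, 15.8 to 75), beside 6.5% of all genes without one. That interval lies above the background, but it counts the shared summit as 2 genes.

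Genes with GC boxes and no SP1 summit were thus common, and 1 promoter from each compartment shows them, AARS1 for alanine (chr16:70289507-70289756, minus) and EARS2 for mitochondrial glutamate (chr16:23557376-23557625, minus). GC boxes are in capitals.
AARS1: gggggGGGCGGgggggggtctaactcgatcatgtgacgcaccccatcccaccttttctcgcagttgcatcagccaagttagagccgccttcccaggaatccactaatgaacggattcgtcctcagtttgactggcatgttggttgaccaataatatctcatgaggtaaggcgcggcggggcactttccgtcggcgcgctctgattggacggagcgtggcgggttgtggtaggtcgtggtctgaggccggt
EARS2: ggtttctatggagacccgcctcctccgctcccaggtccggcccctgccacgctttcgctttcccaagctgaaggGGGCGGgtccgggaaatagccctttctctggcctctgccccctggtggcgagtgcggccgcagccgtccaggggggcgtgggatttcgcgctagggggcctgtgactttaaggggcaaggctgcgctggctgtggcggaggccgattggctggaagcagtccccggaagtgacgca
Each had 1 GC box. The nearest SP1 summits were 512 kb from AARS1 and 544 kb from EARS2. MARS2, with 4 GC boxes, and IARS2, with 6, also had no SP1 summit at an end. CpG content was close in both groups, with medians of 23 CpG per 300 bases in the 7 genes with SP1 and 24 in the 23 without, beside 28 and 23 over all genes.

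**Figure D4:**
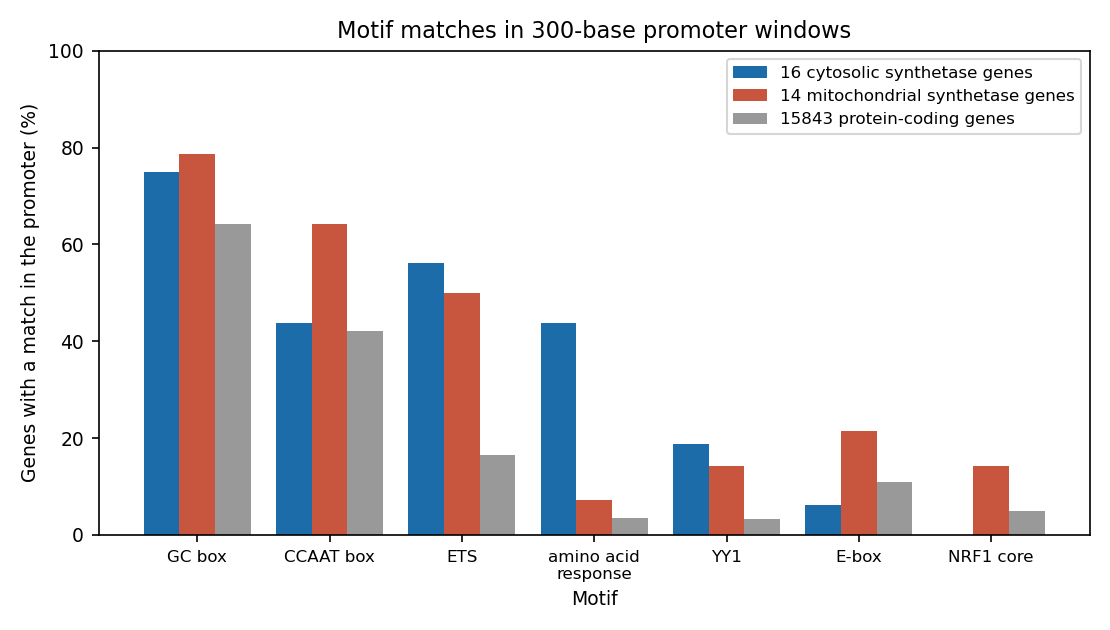
Percent of genes with at least 1 match to each of 7 motifs in the 300-base promoter window, for 16 cytosolic (blue) and 14 mitochondrial (red) synthetase genes and 15843 protein-coding genes (grey). The amino acid response motif is in 43.8% of cytosolic, 7.14% of mitochondrial and 3.60% of all genes, while GC boxes differ by less, between 64.3% and 78.6%.

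Of the 7 motifs, the shares of the compartments lay farthest apart for the amino acid response element, to which ATF4 binds with C/EBP partners. TGATGNAA, where N is any base, was present in 7 of 16 cytosolic genes (43.8%) and in 1 of 14 mitochondrial genes (7.14%), beside 3.60% of all genes. At the ends of these 8 genes there were 0 SP1 summits, which allows a share of up to 37.5%. Over all genes with the motif 53 of 571 had one (9.28%), so 0 of 8 lies near the background. The matches are shown on the strand that reads TGATGNAA, in capitals, with 10 bases on each side.
AARS1: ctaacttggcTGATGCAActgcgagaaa
CARS1: tcctagaatcTGATGCAAccgccgcccc
GARS1: gctcggagcaTGATGAAAtcgccgcgta
IARS1: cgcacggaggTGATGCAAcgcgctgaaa
MARS1: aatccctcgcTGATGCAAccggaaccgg
NARS1: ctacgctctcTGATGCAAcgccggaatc
TARS1: ctggaccagcTGATGCAAtcgaaaggcg
YARS2: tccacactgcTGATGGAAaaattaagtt
TGATGCAA was the sequence in AARS1, CARS1, IARS1, MARS1, NARS1 and TARS1. Counted on the gene's strand, with position 1 at the listed start, the matches of CARS1, GARS1, IARS1, MARS1, NARS1 and TARS1 began between position -33 (GARS1) and position 15 (NARS1). Those of AARS1 and YARS2 began at -187 and -197. The site of AARS1 is chr16:70289676-70289703, that of IARS1 chr9:92293693-92293720 and that of MARS1 chr12:57488054-57488081. A match describes the sequence only, since no library here measured ATF4.

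ETS-type cores were frequent in both compartments. CCGGAAG was found in 9 of 16 cytosolic genes (56.2%) and 7 of 14 mitochondrial genes (50%), beside 16.5% of all genes. The pair of HARS1 and HARS2 held 2 in the bases shown above, and these same cores count for a gene in each compartment. AAGATGGCG, the core of YY1 sites, was in 5 of 30 genes (FARSA, KARS1, NARS1, WARS2 and YARS2; 16.7%, beside 3.21%). CCAAT, bound by NF-Y, was in 7 of 16 cytosolic (43.8%) and 9 of 14 mitochondrial genes (64.3%), beside 42.1%. CACGTG, the E-box of MYC and related factors, was in 4 of 30 (13.3%, beside 10.9%). GCGCATGC, the core of NRF1 sites, was in MARS2 and YARS2 (6.67%, beside 4.89%).

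Accessory genes comprised 17 that act on tRNA or in the synthetase complex and 12 of the amino acid response, which do not charge tRNA. SP1 summits stood at the ends of 7 of these 29 genes, or 24.1% (12.2 to 42.1), beside the same background of 13.7%, and 0 had one of H3K27ac. The 17 had 6 of them (35.3%, 17.3 to 58.7) and the 12 had 1 (8.33%, 1.49 to 35.4), with overlapping intervals. None of the 7 scored above the upper quartile. Both genes of selenocysteine synthesis on its tRNA were among them, PSTK, the kinase, with a score of 8.16 at 501 bases, and SEPSECS, the synthase, with 7.16 at 227 bases. So were both D-aminoacyl-tRNA deacylases, DTD2 with 7.11 and DTD1 with 6.67, while AARSD1, another editing gene, had none. EEF1E1, a scaffold protein of the multi-synthetase complex, scored 6.53 at 283 bases, while AIMP1 and AIMP2, the other scaffolds, had none. PUS1, a tRNA pseudouridine synthase, scored 4.73 and was the 1 gene of 5 in tRNA maturation and export. The 4 genes of mitochondrial transamidation and formylation, GATB, GATC, QRSL1 and MTFMT, had none. Of 12 genes of the amino acid response, DDIT3 alone had a summit at an end, the one near MARS1 given above. Counted by listed starts, 3 of 10 had SP1 (30%, 10.8 to 60.3), with ASNS, for asparagine synthetase, and SLC3A2, for an amino acid transporter chain, beside DDIT3. By the same count 4 of the 13 tRNA and complex genes with a listed start had it (30.8%, 12.7 to 57.6), beside 14.9% of all genes. The nearest SP1 summit to ATF4 itself lay 168666 bases from an end of it.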

How the data were processed

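Peak summits and ranked regions were deposited for the SP1 and H3K27ac libraries, 1 library per antibody. The deposited summit score is a −log10 p-value or q-value, and the deposited regions carry a rank. The submitters' processing notes name the build hg38 and the tools cutadapt 2.5 and deepTools 3.4.1 without their roles. Not given in the sources used here were the aligner, the peak caller and its control.

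Summits were assigned to 20037 protein-coding genes on 24 chromosomes (RefSeq, GRCh38.p14) within 1000 bases of a gene end. Gene starts, strands and sequences came from the RefSeq promoter table. Shares have 95% Wilson intervals, and a count of 0 is read as fewer than 3 counts. Both cover counting error only. The assignment was tested on simulated summits, placed only at genes far from any other gene end. The test therefore did not cover summits that neighbouring genes share, such as that of HARS1 and HARS2. Members, lists, motifs and the rule for named genes were chosen with earlier results of these data known. The rule names members with a summit, those nearest the threshold and accessory genes with a summit; promoters shown follow from it for up to 6 members of highest score (HARS1 and HARS2 share one) and for the first member without a summit in each compartment. The promoters of QARS1 and FARS2, the response element sites, the split by side of the gene end, the split of the accessory genes and other accessory genes named were chosen after their values were seen. Calculations used Python 3.11.15, pandas 2.3.3 and scipy 1.17.1.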

Additional observations from a re-analysis of the deposited data

How the results depend on the processing

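No paired analysis was possible because each antibody had a single library, which also leaves no replicate to omit. Of 41 alternative values, 25 stayed within 1.5 times the main count, or within the 95% interval of a share, and 16 moved. With summits above the median score, SP1 was at 5 synthetase genes and at 1 cytosolic one. Above the upper quartile it was at 3, of which 1 was cytosolic and 2 were mitochondrial, and at 0 accessory genes. By listed start, H3K27ac was at 1 gene in place of 0. The accessory count stayed at 7 by listed start, with ASNS and SLC3A2 in place of PUS1 and SEPSECS. The background share for SP1 was 11.4% within 500 bases, 15.8% within 2500 bases, 10.4% above the median score, 6.21% above the upper quartile and 14.9% by listed start. For H3K27ac the share was 0.404%, 1.49%, 0.409% and 0.230% under the first 4 of these. Windows and score limits move these shares by construction. Assigning each summit to its nearest gene end took HARS1 away and left 8 genes. The share over all genes was not computed by that rule, so where the members stand beside it is unknown. Without reads, the limit that depth sets could not be measured.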
